A study of Drosophila melanogaster with 2 samples.

Results

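Insulator and architectural proteins bind DNA, or bind one another, to mark the borders of chromosome domains and to hold gene promoters in an active state. The genes that encode 10 of them in Drosophila melanogaster were examined for binding of CG10654, an uncharacterized protein. They are Chro, Cp190, Dref, BEAF-32, CTCF, su(Hw), mod(mdg4), Trl, pzg and Clamp. The genes were chosen by symbol, and all 10 were found among the 18164 annotated genes of the 6 chromosome arms 2L, 2R, 3L, 3R, 4 and X. Chromatin immunoprecipitation sequencing (ChIP-seq), which recovers DNA bound to a protein, had been done with an antibody to green fluorescent protein (GFP). The embryos, of both sexes and 0 to 24 h old, came from a line with a stable C-terminal GFP fusion to CG10654. There was 1 group of 2 biological replicates and no other condition, so each value averages over all embryonic tissues and stages and no comparison between conditions was possible. The values describe where the tagged protein was found; RNA from these genes was not analysed here.

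Most DNA-binding members recognise short words. In flies, BEAF-32 binds clusters of the word CGATA, Dref binds the DNA replication-related element, Trl encodes the GAGA factor, which binds GA-rich DNA, and Clamp also binds GA repeats. The zinc finger proteins encoded by su(Hw) and CTCF bind longer sites. The products of Cp190, mod(mdg4), Chro and pzg mainly join as partners: Cp190 and Mod(mdg4) proteins act with Su(Hw) at the gypsy insulator, and Chromator and Putzig (Z4) occur together at interbands of polytene chromosomes.

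The authors deposited candidate peaks for each replicate and for the pooled reads. They also deposited a shorter list kept by the irreproducible discovery rate (IDR), which compares the ranking of candidates between replicates. These are called IDR peaks here. A peak was assigned to a gene when its summit lay in the gene or within 2 kb of it. The signal is the authors' own enrichment value per peak, without units. The 4117 IDR peaks were the 4117 pooled candidates of highest signal, from 99.3 up to 2484, so the rank given below is the place in the pooled list of 27219. Replicate 1 held 23253 candidates and replicate 2 held 30000, and the number of reads behind them is unknown. Over all matched IDR peaks the signal in replicate 1 was a median of 1.93 times that in replicate 2, with peaks in both directions, so levels are compared only within a list.

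Binding was found at 8 of the 10 genes. They held 13 IDR peaks, while CTCF and Clamp held none. By the same rule 30.9% of all genes and 34.4% of the 13945 protein-coding genes had an IDR peak. At 7 genes, Chro, Cp190, Dref, BEAF-32, su(Hw), Trl and pzg, an IDR summit lay within 500 bp of an annotated start of the gene itself, here called its promoter. All genes reached 16.3% and protein-coding genes 19.8% by that measure. Longer genes hold more peaks, so the 8 members between 2 and 6 kb long were also read against protein-coding genes of that length: 6 of the 8 had an IDR peak and 6 a promoter IDR peak, beside 38.1% and 25.1%. These shares are a description of genes picked by name and carry no test. Either replicate alone, taken at its 4117 strongest candidates, gave the same 7 promoters. Where a summit was counted only for the gene with the nearest start, 4 promoters remained (Chro, Cp190, BEAF-32 and Trl), beside 11.5% of all genes. The pooled summits at Dref, su(Hw) and pzg lay nearer to a neighbour's start. At Dref this rested on 41 bp against 43 bp, and the matched summit of replicate 2 lay inside Dref, so its loss from this count is not firm.

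**Figure D1:**
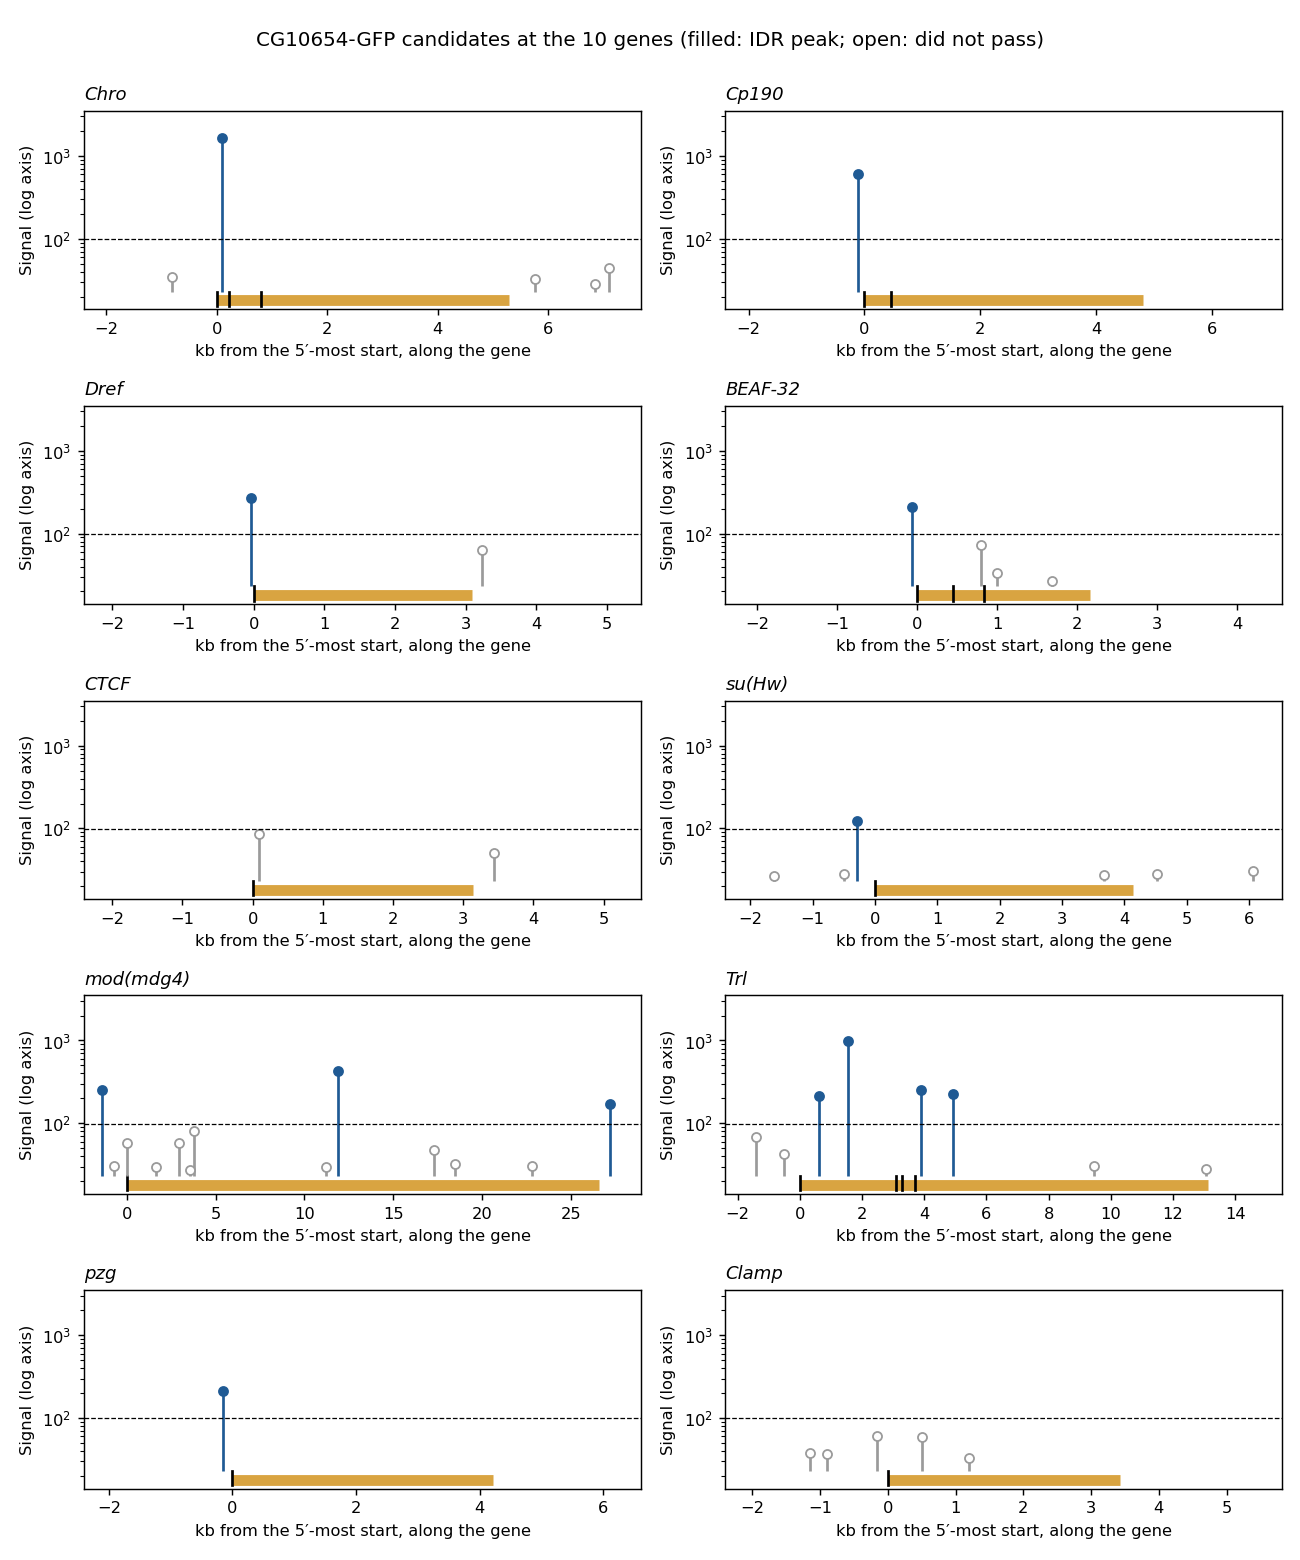
Each panel plots the signal of the pooled candidates at 1 gene (log axis) against the distance in kb from its 5′-most annotated start, in the direction of transcription. Filled points are IDR peaks and open points did not pass, the dashed line is the lowest IDR signal (99.3), the bar is the gene and black ticks are annotated starts; Trl has 4 filled points, mod(mdg4) 3, and CTCF and Clamp none.

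Sequences are shown for 9 of these sites, so that the layout of the paired starts and the letters under the summits can be read. All are the plus strand of the reference genome (dm6), read 5′ to 3′. For Chro, Dref and pzg the stretch between the paired starts is given; for the others, up to 50 bp on either side of the summit. The internal mod(mdg4) stretch is shorter, at 78 bp, because untranslated regions were left out. For the same reason the stretches for Chro and pzg do not hold the summit itself, and they hold neither of the words marked. Capitals mark CGATA or its reverse complement TATCG, and the word TAAGCTA or its reverse complement TAGCTTA. The second word was picked after the windows had been seen.
Chro to Ssl1, chr3L:22878985-22879088: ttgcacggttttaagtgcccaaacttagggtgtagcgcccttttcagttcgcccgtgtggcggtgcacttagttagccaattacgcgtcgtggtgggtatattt
Cp190, chr3R:15275301-15275401: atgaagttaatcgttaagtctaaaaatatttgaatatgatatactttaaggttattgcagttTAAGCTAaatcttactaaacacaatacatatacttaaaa
Dref to RpL13, chr2L:9967230-9967312: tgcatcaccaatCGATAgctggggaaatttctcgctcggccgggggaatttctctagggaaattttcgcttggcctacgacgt
su(Hw), chr3R:14308830-14308930: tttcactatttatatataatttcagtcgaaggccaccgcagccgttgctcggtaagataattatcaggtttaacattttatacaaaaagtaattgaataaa
CG12974 to pzg, chr3L:21285963-21286098: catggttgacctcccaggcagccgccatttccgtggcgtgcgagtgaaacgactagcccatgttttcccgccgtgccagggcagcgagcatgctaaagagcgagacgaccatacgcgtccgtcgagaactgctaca
mod(mdg4), internal peak, chr3R:21365489-21365566: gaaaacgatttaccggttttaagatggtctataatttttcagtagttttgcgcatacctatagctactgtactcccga
mod(mdg4), peak beside tin, chr3R:21378718-21378818: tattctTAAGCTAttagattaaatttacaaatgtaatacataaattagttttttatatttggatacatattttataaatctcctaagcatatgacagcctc
Trl, strongest peak, chr3L:14759467-14759567: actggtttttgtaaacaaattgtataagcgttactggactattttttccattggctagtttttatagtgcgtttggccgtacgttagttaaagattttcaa
Trl, intron peak, chr3L:14756085-14756185: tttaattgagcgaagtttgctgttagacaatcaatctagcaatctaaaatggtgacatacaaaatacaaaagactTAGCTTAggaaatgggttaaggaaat

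Within 50 bp of each summit, 6 words were searched on both strands. CGATA occurred at 3 of the 13 summits, those of Chro, Dref and pzg, which is 23.1% beside 16.7% of all IDR summits and 12.5% of pooled candidates that did not pass. Of these, only the match at Dref falls in a stretch printed above; those at Chro and pzg lie in letters not printed. Within 100 bp of the summit CGATA occurred at 4 of the 13, or 30.8%, beside 30.3% of all IDR summits, so the difference seen within 50 bp was not there in the wider window. The other words were found at none of the 13: TATCGATA (the DNA replication-related element, which contains CGATA, in 1.82% of all IDR summit windows), GAGAG (8.60%), GAGAGAGA (which contains GAGAG, 0.534%), GGTCACAC (Motif 1, 1.04%) and AGGNGGC (a CTCF core, 2.26%). Among all 1035 words of 7 letters in the 13 windows, with both strands merged, 2 were present in 4 windows. TAAGCTA was present at Chro, Cp190, the mod(mdg4) peak beside tin and a Trl intron peak, and in 2.26% of all IDR windows. The copy at Chro lies outside its printed stretch. CTTAAAA was the other, present in 7.29% of all IDR windows, and is not marked above. Both words were picked as the most frequent in these 13 windows, so a high share there was fixed by the choice. G and C made up a median of 33.7% of the letters at the 13 summits, from 21.8% at Cp190 and beside tin to 49.5% at Dref and pzg. The median was 31.7% over all IDR peaks and 39.6% over candidates that did not pass.

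Among the partner proteins, Chro carried the strongest binding. Its product, Chromator, is a chromodomain protein of interbands and of the mitotic spindle. The peak (3L, 22878703 to 22879101) had a signal of 1166 in replicate 1, 501 in replicate 2 and 1662 in the pooled list. It ranked 8, 9 and 8 in these lists, and 6 among the 2164 IDR peaks at any promoter. The summit lay 87 bp downstream of the 5′-most Chro start, in the 5′ untranslated region, and 129 bp upstream of the next start, so it sits between alternative starts of the gene. Ssl1, the gene of a TFIIH subunit, starts 192 bp from the summit, beyond the 5′-most Chro start, and points away from Chro. The other 4 candidates around Chro were weak, from 28.6 to 44.9 in the pooled list. None of these was matched in both replicates. The 2 promoter peaks closest to that of Chro over the 3 signal values were those of the Polycomb group gene ph-p (1190, 502 and 1669) and the arginine methyltransferase gene Art3 (1141, 479.7 and 1619). They lay 0.0307 and 0.0793 away in Euclidean distance on log2 signal. Such likeness rests on strength in 1 pair of samples.

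At Cp190, which encodes a cofactor shared by several insulator complexes, a single candidate was found. Its signal was 429.6 in replicate 1, 182 in replicate 2 and 611 in the pooled list, at ranks 120, 169 and 133. The peak spanned 15275191 to 15275552 on 3R with its summit in the 280 bp between the start of Cp190 (110 bp away) and that of CG4338 (171 bp away). It was stronger than 96.8% of IDR peaks. For pzg, which encodes the Putzig protein found with Chromator and with Dref complexes, a single candidate was found as well (3L, 21285759 to 21286148). Its signals were 146, 62.1 and 210.5 in replicate 1, replicate 2 and the pool. The summit lay 145 bp upstream of pzg and 8 bp inside the neighbouring gene CG12974, which points the other way across a gap of 136 bp.

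The pattern at mod(mdg4) was different, since no IDR peak lay at its own promoter. This gene joins a shared 5′ part to many alternative 3′ parts, some of them transcribed as separate precursors and joined by trans-splicing. Its annotated start held only a weak candidate, 22 bp downstream, with signals of 30.2 in replicate 1, 30.5 in replicate 2 and 58.5 in the pool (rank 8121). The strongest of its 3 IDR peaks lay inside the gene, 11885 bp downstream of the start (3R, 21365376 to 21365624). It had signals of 319.9, 123 and 425 in replicate 1, replicate 2 and the pool, and ranked 319. This internal peak lay in an intron of mod(mdg4), within 500 bp of the annotated starts of 10 precursor genes on both strands. The nearest were pre-mod(mdg4)-E (28 bp) on one side, and on the other a start 93 bp away shared by pre-mod(mdg4)-U and 6 more. These entries are annotated as genes of their own and are counted so in the percentages for all genes.

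The remaining IDR peaks of mod(mdg4) lay outside the gene. One was 1367 bp upstream of its start (3R, 21378573 to 21378962), with signals of 148, 112 and 249.8 in replicate 1, replicate 2 and the pool. Its nearest annotated start, 209 bp away, is that of tin, which encodes the heart and muscle homeodomain protein Tinman. The other lay 671 bp beyond the 3′ end and 574 bp from a start of aus (signals 97.3, 62.4 and 170.1). With a flank of 500 bp in place of 2 kb both leave the count, which drops from 13 to 11 IDR peaks, and mod(mdg4) keeps its internal peak. A further 10 candidates, from 27.5 to 81.1 in the pool, did not pass, and 4 of these were matched in both replicates.

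Trl held more binding than any other member by number of peaks. With 4 IDR peaks, all inside the gene, it is among the 0.963% of all genes with 4 or more within the gene or 2 kb. The share was 8.66% among protein-coding genes of 12 kb or longer, and Trl spans 13121 bp. The strongest (3L, 14759319 to 14759718) had signals of 684 in replicate 1, 303 in replicate 2 and 993 in the pool. It ranked 30, 51 and 34 in these lists, and 9 among the 1953 IDR peaks with no start within 500 bp. This site lay in an intron, 1532 bp downstream of the 5′-most start and 1555 bp upstream of the next start. The other 3 were weaker and close to one another in strength: 253 in the pool at 175 bp downstream of an internal start (in a 5′ untranslated region), 227 at 1201 bp downstream of the same start, and 212 at 614 bp downstream of the 5′-most start. In replicate 1 they had 174, 153 and 138, and in replicate 2 79.5, 85.3 and 68.7. The replicates thus did not order the first pair alike. The 5′-most start of Trl had no candidate within 500 bp. The nearest upstream candidate, 526 bp away and beside starts of Tsen34 and Mgat4a, had 42.9 in the pool and did not pass.

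**Figure D2:**
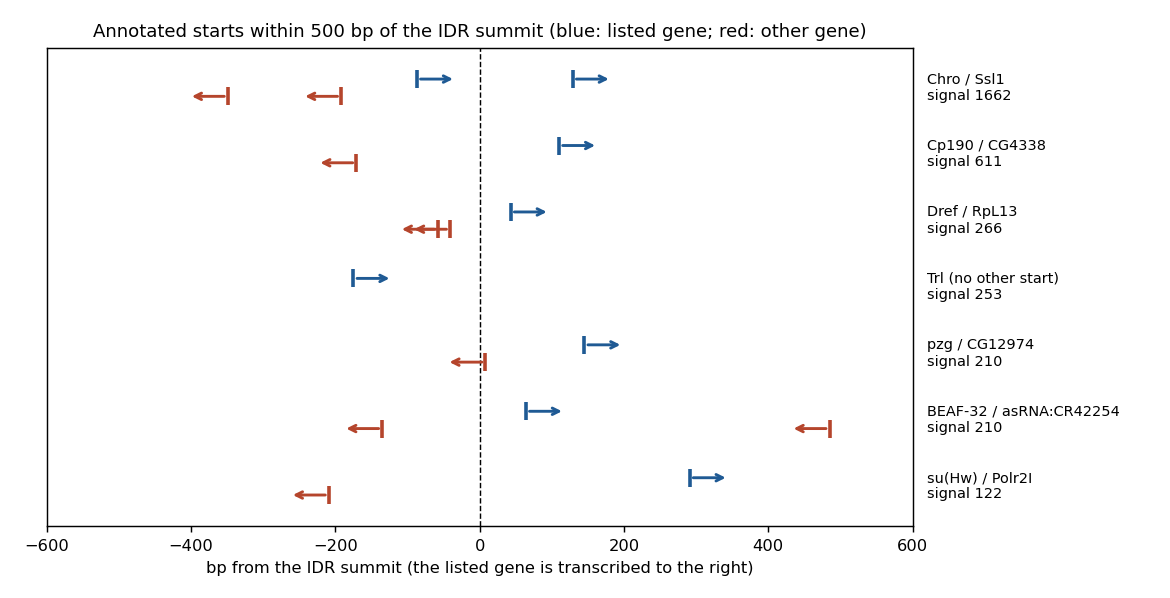
Annotated starts within 500 bp of the IDR summit at the 7 bound promoters, in bp from the summit, drawn so that the listed gene (blue) is transcribed to the right; other genes are red and arrows give the direction of transcription. At 6 of the 7 the summit has a start of another gene beside it, and Trl has none.

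Among the remaining DNA-binding members, Dref and BEAF-32 had promoter peaks of middling strength. Dref encodes a factor that binds the promoters of replication and housekeeping genes. Its peak (2L, 9967077 to 9967466) had signals of 173 in replicate 1, 92.7 in replicate 2 and 266 in the pool, at ranks 915, 853 and 873. The pooled summit lay almost at the middle of the 83 bp between Dref (43 bp) and RpL13 (41 bp), which encodes a protein of the large ribosomal subunit. The matched summit of replicate 1 lay 1 bp from it. That of replicate 2 lay 85 bp from it on the Dref side, inside Dref and outside the gap. The site therefore cannot be given to either gene alone. The peak of BEAF-32 (2R, 14770210 to 14770599) had signals of 139, 67.7 and 210.0 and a summit 64 bp upstream of the start. The antisense RNA gene asRNA:CR42254 has starts 135 and 485 bp from that summit. A weaker candidate lay beside an internal BEAF-32 start, 40 bp upstream of it, with 51.2, 22.8 and 72.5 in replicate 1, replicate 2 and the pool. It was matched in both replicates but did not pass.

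The gene su(Hw) was the weakest of the bound promoters. Its IDR peak (3R, 14308685 to 14309074) had signals of 78.6 in replicate 1, 39.7 in replicate 2 and 122 in the pool, at ranks 3242, 3672 and 3162. Only 23.2% of IDR peaks were weaker. The summit lay 291 bp upstream of su(Hw) and 209 bp upstream of Polr2I, which encodes a subunit of RNA polymerase II, in the 499 bp between their starts. With a promoter window of 250 bp in place of 500 bp, su(Hw) is the one member that loses its promoter peak, and Polr2I keeps it. In the stronger 2058 IDR peaks su(Hw) is also absent, while the other 6 promoters remain, beside 9.35% of all genes.

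CTCF and Clamp had candidates at their starts that did not pass. At CTCF, which encodes the zinc finger protein shared with vertebrates, the summit lay 95 bp downstream of the only annotated start (3L, 7356423 to 7356812), in the 5′ untranslated region. Its signal was 54.2 in replicate 1, 28.4 in replicate 2 and 84.8 in the pool, at ranks 5281, 5848 and 5056. That is 85.4% of the lowest IDR signal, and both replicates held the candidate. At Clamp, the strongest pooled candidate lay 158 bp upstream of the start (2L, 22169106 to 22169495), with 45.9, 14.2 and 60.6. The replicates placed it at different ranks, 6576 in replicate 1 and 17619 in replicate 2. Another Clamp candidate, 502 bp downstream of the start, had 33.9 in replicate 1, 20.1 in replicate 2 and 58.4 in the pool. It ranked 10212 and 9954 in the replicates, was the stronger of the pair in replicate 2, and did not pass. Within 500 bp of the CTCF summit there was no start of another gene, and within 500 bp of the upstream Clamp summit only that of lncRNA:CR44809. Around the threshold of 99.3, su(Hw) was the member just inside and CTCF the member just outside.

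Most promoter peaks of the bound members were shared with another gene. At 6 of the 7 promoter peaks, all but that of Trl, the start of another gene lay within 500 bp of the summit, beside 44.7% of all IDR promoter peaks. By the stricter definition of a divergent promoter, with starts on either side pointing away from the summit, there were 5 of 7, beside 39.4%. Chro is among the 5 only through an internal start, because its 5′-most start lies between the summit and Ssl1. Both percentages count each peak once, whereas the members were reached gene by gene. A shared peak is reached through each of its genes, so a share per gene would be higher. It was not computed, so no excess at the members can be read from these values. The distance between the paired starts ran from 83 bp at Dref to 499 bp at su(Hw). The neighbours are mixed in kind: a TFIIH subunit gene (Ssl1), a ribosomal protein gene (RpL13), an RNA polymerase II subunit gene (Polr2I), an antisense RNA gene and the genes CG4338 and CG12974. Which gene of a pair the binding relates to was not tested.

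**Figure D3:**
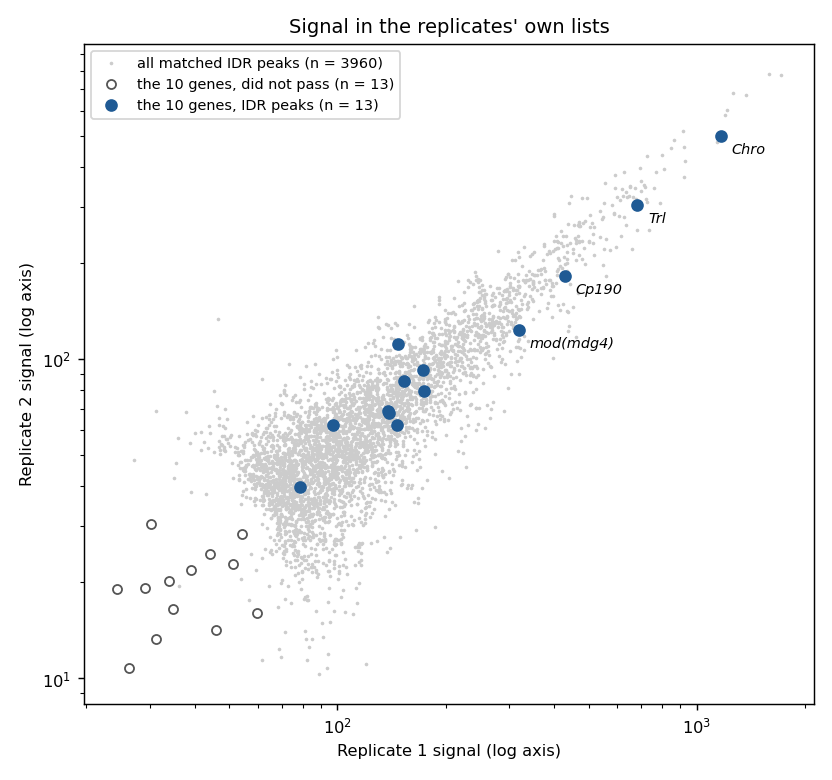
Signal in replicate 2 against replicate 1, both on log axes and in the units of the authors' lists, for the 13 IDR peaks of the 10 genes (filled), the 13 of their other candidates matched in both replicates (open) and all 3960 matched IDR peaks (grey). Chro, Trl, Cp190 and the internal peak of mod(mdg4) lie toward the upper right within the grey band, and the open points lie at its lower left end.

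The replicates gave the members nearly the same order. By strongest peak the order in the pool was Chro, Trl, Cp190, mod(mdg4), Dref, pzg, BEAF-32, su(Hw), CTCF and Clamp. Replicate 1 gave this order too, and replicate 2 exchanged pzg (62.1) and BEAF-32 (67.7), so these neighbours cannot be ranked. Each of the 13 IDR peaks was matched, at 100 bp or less, by a candidate of either replicate, beside 96.2% of all IDR peaks. Because IDR draws on both replicates, that is no independent test. The 13 were also all among the 4117 strongest candidates of each replicate, beside 75.9% of all IDR peaks. Of the 13, 12 were in the stronger 2058 IDR peaks, whereas the 75.9% includes the weaker ones, so these values are not like for like. Between replicates the summit moved by a median of 30 bp at these peaks and 22 bp at all matched IDR peaks, with 84 bp at Dref as the widest gap of the 13. Within 50 bp, 9 of the 13 were matched in both, beside 78.5% of all IDR peaks. Signals in replicate 1 were 1.32 times (beside tin) to 2.60 times (internal mod(mdg4) peak) those in replicate 2, with a median of 2.05.

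Outside the IDR list, the windows of the members held 34 candidates, and all 10 genes held a pooled candidate of some kind, as did 73.6% of all genes. Their signals ran from 26.8 to 84.8, with a median of 33.3 beside 37.0 for all candidates that did not pass. Of the 34, 13 were matched in both replicates (38.2% beside 29.5% of all such candidates), 16 in 1 replicate and 5 in neither. The authors describe the candidate lists as holding background along with peaks. Counted per kb of gene and flank, the members had 0.118 IDR peaks, beside 0.0460 over the added windows of protein-coding genes. All pooled candidates, passing or not, were also denser at the members, at 0.428 beside 0.247 per kb. Of the 13 IDR peaks, Trl held 4 and mod(mdg4) held 3.

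A wider list of 33 genes for related proteins was read in the same way. It was written from general knowledge with earlier results of these data known. An IDR summit lay at the promoter of 13 of the 33 (39.4%): 3 of 12 further DNA-binding proteins, 6 of 9 cofactors, and 4 of 12 subunits and regulators of cohesin and condensin, the ring complexes that hold and fold chromosomes. All genes reached 16.3% and protein-coding genes 19.8%, and the 3 of 12 (25%) lie near the latter share. Among protein-coding genes the share was 13.5% below 2000 bp, 25.1% from there to 6000 bp, 26.8% to 12000 bp and 24.8% beyond. Most genes of the list are 2000 bp or longer, while most of its DNA-binding group are shorter. The list was not matched for length, so the size of any excess in it or its groups is unknown. The highest signals were those of the condensin genes SMC2 (343) and Cap-H2 (322). Next came M1BP (317), which encodes a binder of Motif 1, then shep (278), row (270.4) and the cohesin gene SA1 (263). The product of shep is an RNA-binding protein that acts on gypsy insulator activity. At M1BP the replicates differed in rank, 565 and 2507. None of the 6 reached the promoter signal of Cp190 or Chro. The list straddled the threshold: l(3)mbt passed at 99.3, while HIPP1 (98.3), SMC1 (98.1) and wapl (93.7) did not, so its count rests on where the threshold lies. At 10 of the 33 no pooled candidate lay within 500 bp of a start, among them dwg, ZIPIC, z and all 3 Elba genes. The same share over all genes was not computed, so whether 10 of 33 is many or few is unknown.

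**Figure D4:**
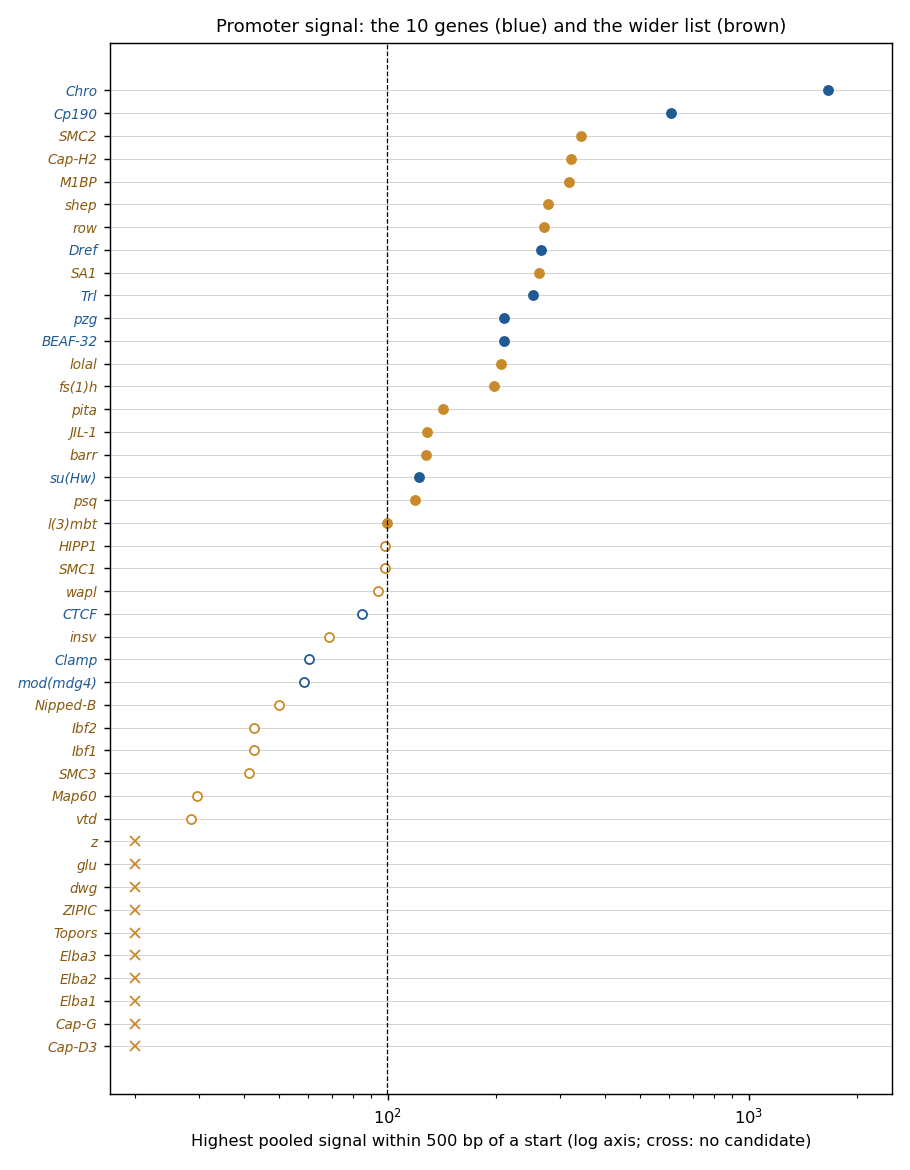
Highest pooled signal within 500 bp of an annotated start (log axis) for the 10 genes (blue) and the 33 genes of the wider list (brown). Filled points passed IDR, open points did not, crosses mark genes with no candidate there, and the dashed line is the lowest IDR signal (99.3); Chro (1662) and Cp190 (611) stand to the right of every other gene shown.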

How the data were processed

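Whole-embryo ChIP-seq of GFP-tagged CG10654 was analysed from the peak lists of 2 biological replicates, sonicated to 200 to 800 bp per the labels. Per the deposited file descriptions, candidate lists came from the alignments of each replicate, or of both together, with a control library (not analysed here), and IDR was then applied by the authors. No aligner, peak caller or IDR threshold is named in the sources used here. The deposited signal value per peak (field 7) is the authors' own, and field 10 gives the summit. Read depth is unknown.

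Only the dm6 lists were used. Summits were placed on the Ensembl release 115 annotation without transposable element entries (18164 genes), and sequence came from the Release 6 genome. A promoter summit lay within 500 bp of a start, and summits within 100 bp were matched between lists. With 1 group there was no statistical test; counts stand beside those of all genes or peaks. Lookups were checked on simulated positions. The members and lists were chosen with earlier results of these data known. The genes named were the 10 members, genes with a start beside their IDR promoter summits, the 2 peaks nearest to the strongest member's, and the 6 strongest of the wider list; others were named after their values were seen. All but 1 gene of that list matched by symbol; SA was assigned to SA1 by hand. Python 3.11.15 and pandas 2.3.3 were used.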

Additional observations from a re-analysis of the deposited data

How the results depend on the processing

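Of the counts given, the number of members with an IDR peak (8) was 7 to 8 under every alternative tried, and the number of IDR peaks at them (13) was 11 to 13. The share of all genes with an IDR peak, 30.9% in the main setting, changed between settings. It was 18.6% with the stronger 2058 IDR peaks (7 members). With a flank of 500 bp it was 22.0%, and with 5000 bp 43.9% (8 members in each). A steady count is therefore not a steady contrast with all genes. Leaving out either replicate gave 8 members, 13 peaks and 7 promoters, and 12 to 13 genes of the wider list. Members with a promoter peak (7) came to 4 when a summit was counted only for the nearest start. The wider list (13) came to 8 there, beside 11.5% of all genes. That setting by construction gives a shared summit to 1 gene. The stronger 2058 IDR peaks also gave 8 genes of the wider list, beside 9.35% of all genes. A flank of 5000 bp raised the pooled candidates from 47 to 72, since the windows are larger. A word was found at 5 of 13 summits when searched within 100 bp of the summit (CGATA at 4, beside 30.3% of all IDR summits, and GAGAG at 1, beside 20.5%) and at 1 within 25 bp (CGATA, beside 8.62%), against 3 within 50 bp. No paired analysis was possible because there is 1 group. With no counts of reads, no interval could be given for a signal, and candidates near the threshold are limited by the unknown depth.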

Other observations

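Some genes of the wider list resembled Trl in holding several IDR peaks within the gene or 2 kb: shep held 7, and JIL-1 and psq held 5 each. JIL-1 encodes the histone kinase of interbands and psq a GAGA-binding protein. These were named after their counts had been seen, and longer genes hold more peaks. The promoter peaks of JIL-1 and psq (pooled signals 129 and 119) had a matching summit in replicate 1 (98.9 and 107) and none within 100 bp in replicate 2.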
